A study of Mus musculus with 4 samples.

Results

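The genes described here encode the proteins of the cytosolic ribosome in mouse embryonic stem cells. They were taken by name: a protein-coding gene of the GENCODE M21 annotation whose symbol is Rpl or Rps followed by a digit, or Rplp0, Rplp1, Rplp2 or Rpsa, with the kinases named Rps6k and the pseudogenes left out. The rule found 86 genes among the 54838 gene rows of the count tables. Of these, 46 encode core proteins of the large subunit and 31 core proteins of the small subunit. A further 8 are paralogs of a core gene, 6 of the large and 2 of the small subunit. The remaining gene, Rps19bp1, has a matching symbol but encodes a binding partner of a ribosomal protein and not a ribosomal protein. All 86 passed the filter on low counts.

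RNA sequencing compared E14Tg2a.4 cells, an embryonic stem cell line of strain 129/Ola, with the line MLC460 derived from them. In MLC460, CRISPR/Cas9 was used to fuse mEGFP, a monomeric green fluorescent protein, to the N-terminus of endogenous p300, a coactivator of transcription that acetylates histones. Both lines were grown on gelatin in medium with serum and leukemia inhibitory factor, and each gave 2 libraries, which the study's design text calls biological replicates, referred to here as wild-type 1 and 2 and knock-in 1 and 2. Only 1 knock-in line was sampled, so the tag and other differences acquired by that line cannot be told apart.

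A ribosome consists of a large subunit, which joins amino acids, and a small subunit, which reads the messenger RNA, and each holds ribosomal RNA and 1 copy of most of its proteins. Cells make these proteins in near-equal numbers, and proliferating cells such as embryonic stem cells devote much of their transcription to them. Most of the messenger RNAs start with a C followed by a run of pyrimidines, the 5′ terminal oligopyrimidine (TOP) motif, through which mTOR signalling and the protein LARP1 control their translation. The genes also have many processed pseudogenes, which share long stretches of sequence with them.

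The promoters of the core genes shared the pyrimidine run, which the naming rule did not use. RefSeq promoter sequences (GRCm38.p6, 250 bases before to 50 after the annotated start) matched 66 of the 86 genes by symbol, among them 57 core genes. A run of at least 8 C or T bases that began with C was present on the sense strand, within 50 bases of the start on either side, in 48 of the 57 (84.2%), against 31.9% of 26959 other genes. The share was 91.2% for the large and 73.9% for the small subunit. The motif CCGGAAG, the core of the site bound by ETS factors such as GABP, was found on either strand of the whole window in 42.1% of core promoters and 9.86% of the others. TATAAA was found in 10.5% and 15.7%. These matches describe the letters of the window only. Windows of 30 bases from the sense strand are shown for Rpl34 and Rpl27a, which have long runs, and for 4 genes whose measured levels are described in detail. Windows of the abundant Rps12 and Rplp2 and of 4 paralogs follow. Capitals mark the longest run in each, or the first where runs were equally long, as in Rps27l. Every position refers to GRCm38.p6.
Rpl34 (chr3:130730333-130730362, minus strand): ctcacccgCCCCTTCCTTTTCCTCTTCCgg
Rpl27a (chr7:109519183-109519212, plus strand): ttcgtgagCTCCTCCCTTTTCCCTTTCTgc
Rps24 (chr14:24490709-24490738, plus strand): tgagcggtCCTCTTTTCCTCCTCTCCagct
Rps25 (chr9:44407684-44407713, plus strand): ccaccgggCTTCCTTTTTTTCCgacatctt
Rps7 (chr12:28635910-28635939, minus strand): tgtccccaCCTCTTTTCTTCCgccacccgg
Rps27 (chr3:90213629-90213658, minus strand): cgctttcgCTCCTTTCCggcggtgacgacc
Rps12 (chr10:23787180-23787209, minus strand): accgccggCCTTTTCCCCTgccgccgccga
Rplp2 (chr7:141447639-141447668, plus strand): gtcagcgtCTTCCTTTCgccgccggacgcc
Rps27l (chr9:66946056-66946085, plus strand): cgcctccaCTCCTCTCCactcctccccgcc
Rpl22l1 (chr3:28805503-28805532, plus strand): agcccgttCTCTTCCCacggctgcagctca
Rpl39l (chr16:10170194-10170223, plus strand): acccactgCCTCTCCCTagctcccaggcct
Rpl7l1 (chr17:46782667-46782696, minus strand): gaggcgggCCTCTCTaccccgcccggtgag
The runs of Rpl34 and Rpl27a were 20 bases long, and those of the 4 small-subunit genes Rps24, Rps25, Rps7 and Rps27 were 18, 14, 13 and 9 bases. Those of Rps12 and Rplp2 were 11 and 9 bases, and those of the 4 paralogs were 7 to 9 bases.

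Counts assigned to genes ranged from 18946731 to 26553998 per library. Embryonic stem cell markers summed to between 5302 and 6048 CPM (counts scaled to the size of the library), while markers of mesoderm, primitive endoderm and trophoblast summed to at most 11.2 CPM each. Neuroectoderm markers summed to 123 and 210 CPM in wild-type 1 and 2 and to 141 and 128 CPM in the knock-in libraries, most of it Tubb3, a neuronal tubulin. Ep300, which encodes the tagged protein, measured 209.5 CPM in wild-type 1, 210.0 in wild-type 2, 180.8 in knock-in 1 and 210.4 in knock-in 2 (log2 fold change -0.10, SE 0.15, edgeR adjusted p = 0.804). The wild-type replicates stood further apart than the knock-in replicates: over all tested genes the median absolute log2 difference was 0.30 for the wild-type pair and 0.14 for the knock-in pair.

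Core ribosomal protein genes were among the abundant transcripts, apart from 6 genes with far lower counts. On the scale of CPM per kilobase of transcript, averaged over the 4 libraries, the median core gene stood at 1050 CPM per kb, the middle 50% of the genes between 674 and 1530. The median was 1070 CPM per kb in the large and 977 in the small subunit. The highest level was that of Rplp1, an acidic protein of the stalk that recruits translation factors. Its level was 3157 CPM per kb in wild-type 1, 4661 in wild-type 2, 3660 in knock-in 1 and 3421 in knock-in 2. Rps12, of the small subunit, followed with 2966 and 4575 in wild-type and 3617 and 3418 CPM per kb in knock-in cells. In both genes the 2 wild-type libraries held the lowest and the highest value, so the groups overlapped. The next in the large subunit were Rpl8, Rpl13, Rpl7a, Rplp2 and Rplp0, with means of 3209, 2985, 2157, 1928 and 1857 CPM per kb. In the small subunit, Rps2, Rps24, Rps18, Rps14 and Rps26 followed, with 2797, 2249, 2013, 1979 and 1823 CPM per kb. Rplp0 and Rplp2 belong to the same stalk as Rplp1.

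**Figure D1:**
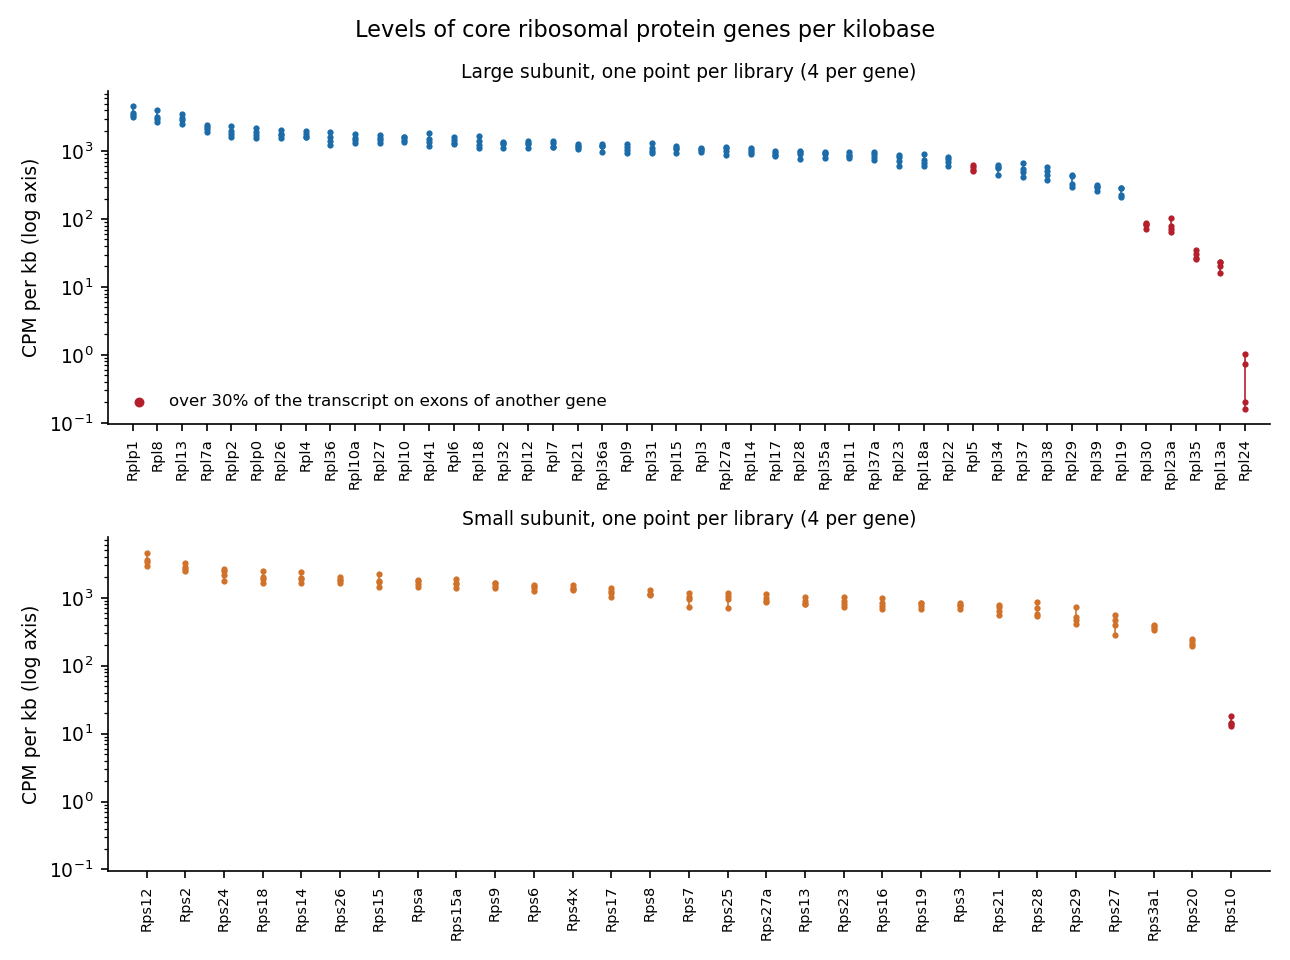
Levels of the core ribosomal protein genes, apart from 2 not drawn, in CPM per kilobase on a log axis, with 1 point per library and genes ordered by their mean. The 7 genes with over 30% of their transcript on exons of another gene are in red, and 6 of them form the low end while Rpl5 lies with the rest.

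The 6 core genes at less than 10% of the median were Rpl24, Rps10, Rpl13a, Rpl35, Rpl23a and Rpl30. Each of them has more than 30% of its reference transcript on exons of another annotated gene, which is true of 7 of the 77 core genes. The seventh is Rpl5, at 559 CPM per kb, with 46.6% of its transcript on exons of Fam69a on the opposite strand. STAR counts no read that falls on 2 genes, so reads from the overlapping stretches are left out of these counts. For Rpl24, Rps10 and Rpl13a the other gene lies on the same strand: 71.5% of Rpl24 overlaps Gm28037, 91.6% of Rps10 overlaps RPS10-NUDT3 and 59.3% of Rpl13a overlaps Gm45713. For Rpl35, Rpl23a and Rpl30 it lies on the opposite strand (Wdr38, Tlcd1 and D730044K07Rik). The 2 strand-specific columns of the same tables treat the strands separately. Their sum was 21.9 times the unstranded count for Rpl23a, 19 times for Rpl35 and 6.19 times for Rpl30. It was 1 to 1.02 times for the 3 genes with a same-strand partner, and 1.01 times for Rpl5. For a gene with an opposite-strand partner, the sum can also hold reads of that partner from the shared stretch, which were not told apart.

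Sequence shared with other genes was the rule for the core genes. In 76 of the 77, at least 1 stretch of 50 bases occurred in the transcripts of another gene, and the median share of such stretches was 55.5%. The share reached 98.6% in Rps27 and 92.1% in Rpl10, and was 7.9% in Rpl8. Reads that fit several places were not assigned by the authors' counting, so levels of the genes with high shares are uncertain. Annotated ribosomal protein pseudogenes, 300 rows, together held 0.91% to 0.997% as many counts as the 86 genes.

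Together the 86 genes held 6.52% of the gene counts in wild-type 1, 7.83% in wild-type 2, 7.31% in knock-in 1 and 6.87% in knock-in 2. The means were 7.17% ± 0.93 in wild-type and 7.09% ± 0.313 in knock-in cells (SD, n = 2 each), and both knock-in values lay between the wild-type values. The large subunit's core genes accounted for 3.83%, 4.63%, 4.31% and 4.05% of the counts in that order of libraries, and those of the small subunit for 2.61%, 3.13%, 2.93% and 2.75%. Both subunits thus had the same order of libraries. The ratio of summed large-subunit to summed small-subunit CPM was 1.466 in wild-type 1, 1.477 in wild-type 2, 1.468 in knock-in 1 and 1.474 in knock-in 2. On the log2 scale, knock-in minus wild-type came to -0.000759, and the knock-in values again lay inside the wild-type range. The ratio of sums thus ranged from 1.466 to 1.477 over libraries whose share of ribosomal protein counts ranged from 6.52% to 7.83%.

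**Figure D2:**
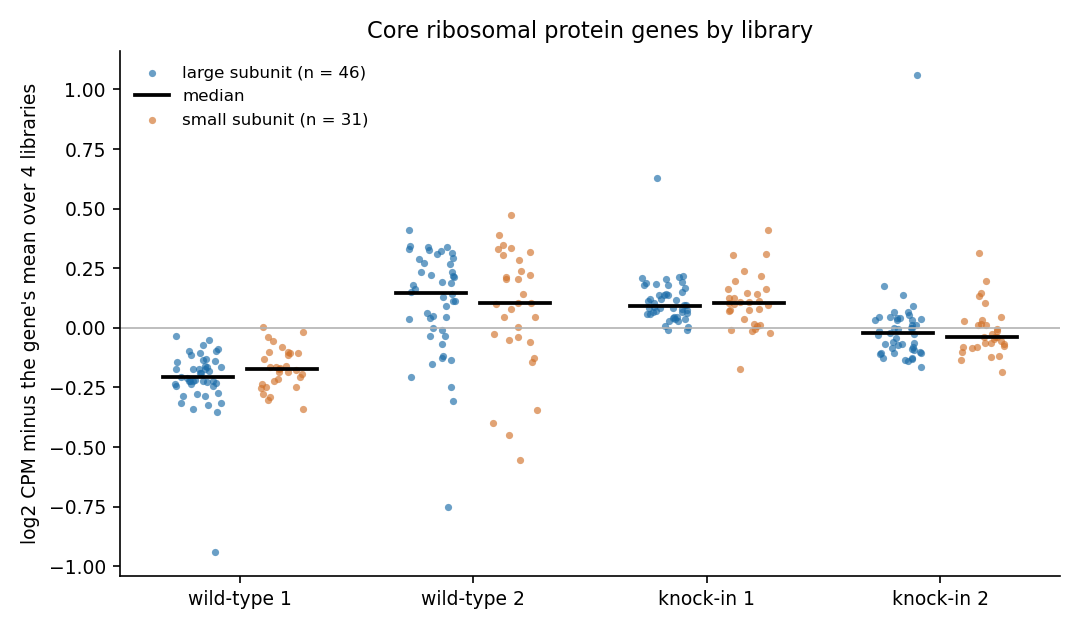
Each point is a core gene's log2 CPM in 1 library minus its mean over the 4 libraries, with 46 large-subunit genes in blue, 31 small-subunit genes in orange and a bar at each median. Wild-type 1 has the lowest median in both subunits, -0.21 and -0.17, and wild-type 2 has many values on either side of 0.

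Wild-type 1 was the lowest library for 63 of the 77 core genes (39 large, 24 small) and the highest for none. Wild-type 2 was the highest for 41 and the lowest for 13. Knock-in 1 was the highest for 34 and knock-in 2 for 2. The median deviation of the core genes from their own means was -0.19 in wild-type 1, 0.13 in wild-type 2, 0.10 in knock-in 1 and -0.03 in knock-in 2, all on the log2 CPM scale. The difference between the wild-type libraries thus had a median of 0.34 over the core genes, against -0.05 over all tested genes.

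No ribosomal protein gene passed an adjusted p of 0.05 between knock-in and wild-type cells. In edgeR's quasi-likelihood test 0 of the 86 genes were called, beside 10 of the 15191 genes tested (0.0658%). DESeq2 and limma-voom also called 0 of the 86, beside 0.81% and 0.0263% of all genes, though DESeq2 gave no adjusted p for Rpl24. At an unadjusted p under 0.05, edgeR gave 6 genes with higher (Rpl24, Rps27, Rps25, Rps24, Rps7 and Rpl23) and 1 with lower counts in knock-in cells (Rpl10l), beside 3.54% and 7.4% of all tested genes. The smallest adjusted p over the 86 was 0.311. The median log2 fold change was 0.045 over the large-subunit core genes and 0.060 over those of the small subunit, and 0.001 over all tested genes. Of the 86 genes, 55 lay above 0 and 31 below. The groups did not overlap in 26 genes with knock-in values higher (30.2%, beside 23.4% of all tested genes) and in 2 with knock-in values lower (2.33%, beside 23.9%). Among the 77 core genes these counts were 23 and 0. Rpl24 is among the 23 but passed the low-count filter only through its knock-in counts.

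The direction of these medians turned with single libraries of either line. Without wild-type 1 they were -0.117 for the large and -0.062 for the small subunit, and without knock-in 1 they were -0.028 and -0.035. Without wild-type 2 they were 0.208 and 0.206, without knock-in 2 they were 0.116 and 0.130, and with an offset for GC content they were 0.147 and 0.148. Without wild-type 1, 32 of the 86 genes were called, 11 higher and 21 lower (37.2%, beside 32.1% of 15622 genes tested, 19% higher and 13.1% lower). Without wild-type 2, 5 were called (5.81%, beside 4.39% of genes tested, 0.711% higher and 3.68% lower): Rpl13a, Rpl29, Rpl34 and Rps27 were higher and Rpl10l was lower. Such a fit takes the spread from the other pair alone and assumes that the lone library varies like it. Markers of fibroblasts or feeder cells also differed between the lines: their 8 genes summed to 36.03 and 39.19 CPM in wild-type and to 22.21 and 23.88 CPM in knock-in cells, all 4 tested genes had non-overlapping lower values in knock-in cells (beside 23.9% of all tested genes), and Lum was at 0 in all 4 libraries. Their part in the ribosomal protein values was not tested.

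**Figure D3:**
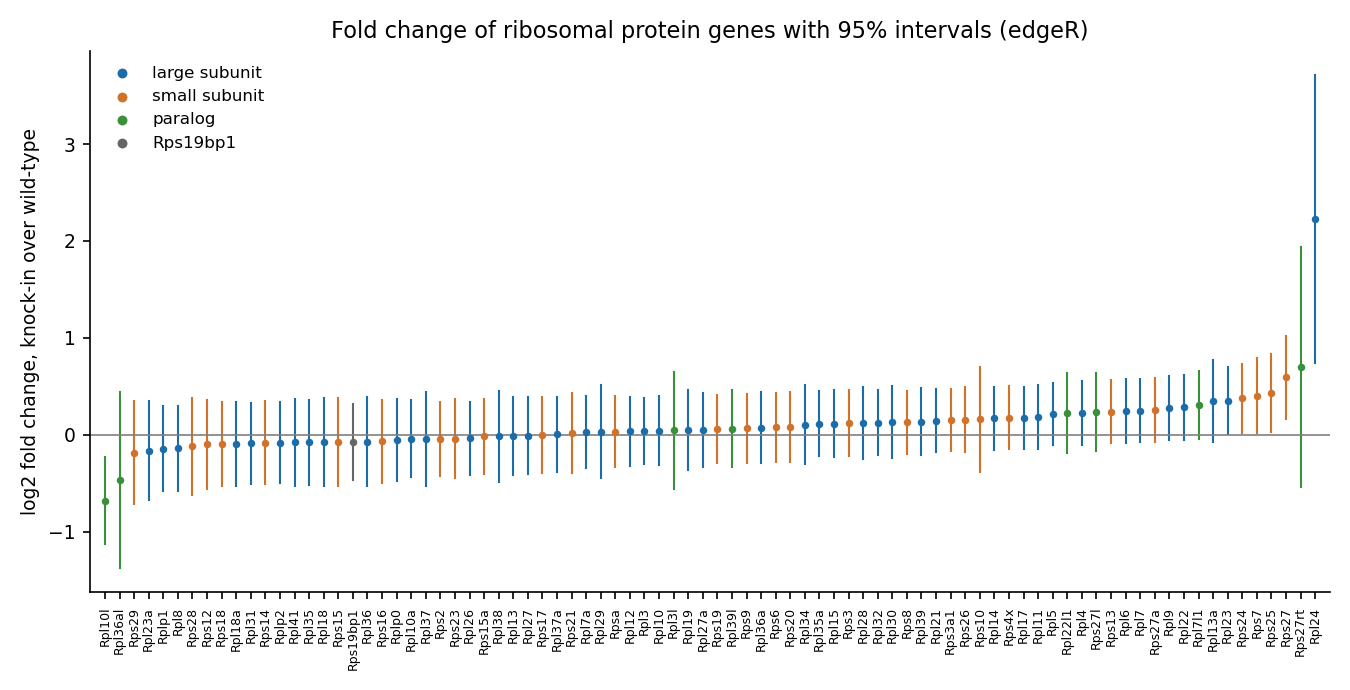
Log2 fold change of the ribosomal protein genes, apart from 2 not drawn, knock-in over wild-type, ordered by size, with 95% intervals from edgeR. The intervals of most genes span 0; Rpl24, with at most 13 counts in a library, has the widest interval and Rpl10l lies lowest.

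Rps27, a zinc-finger protein of the small subunit (ENSMUSG00000090733, GRCm38 chromosome 3, 90212522 to 90213651), had the highest fold change among the core genes with more than a few counts. It measured 136.9 CPM in wild-type 1 and 97.1 in wild-type 2, against 189.6 CPM in knock-in 1 and 163.3 in knock-in 2. Both knock-in libraries lay above both wild-type libraries, and wild-type 2 was the lowest. Its means were 117 ± 28.2 and 176 ± 18.6 CPM (SD, n = 2 each), with a log2 fold change of 0.59 (SE 0.19, 95% interval 0.17 to 1.02, edgeR adjusted p = 0.355). With an offset for GC content Rps27 was the 1 gene of the 86 that was called, beside 1.4% of all genes, with a log2 fold change of 0.67 (edgeR adjusted p = 0.0273). Its log2 fold change was 0.87 without wild-type 1 and 0.35 without wild-type 2. Over all settings tried, its adjusted p ranged from 1.00e-12 without wild-type 1 to 0.9995 without knock-in 1, so the call depends on the setting. Nearly all of the transcript is shared with other loci, as given above.

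Rps25, Rps7 and Rps24, also proteins of the small subunit, showed the same arrangement of libraries. Rps25 measured 553.8 and 404.4 CPM in wild-type and 684.4 and 605.3 CPM in knock-in cells (log2 fold change 0.43, SE 0.18, edgeR adjusted p = 0.442). Rps7 measured 780.1 and 599.5 CPM in wild-type and 976.4 and 849.7 CPM in knock-in cells (log2 fold change 0.40, SE 0.17). Rps24, mutated like Rps7 in some cases of Diamond-Blackfan anemia, measured 1013 and 818.6 CPM in wild-type and 1227 and 1152 CPM in knock-in cells (log2 fold change 0.38, SE 0.16). In these 3 genes wild-type 2 was the lowest library and knock-in 1 the highest. Without wild-type 2 their log2 fold changes were 0.21, 0.21 and 0.22, close to the median of 0.206 over all core genes in that fit.

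Rpl24 had the highest fitted fold change, 2.23 on the log2 scale (SE 0.66, edgeR adjusted p = 0.311), but from 3 counts in each wild-type library, 12 in knock-in 1 and 13 in knock-in 2. The summed counts per depth were 4.8 times as high in knock-in cells, with an exact 95% counting interval of 1.92 to 14.3 that covers counting error only. Rpl24 passed the low-count filter only through the knock-in libraries, where it is high, so its fold change and interval rest on that selection. The stricter filter left it out. Rpl24 is among the genes whose transcript overlaps another gene on the same strand.

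Rps29 and Rpl23a, the core genes with the lowest fold changes, had knock-in values inside the wild-type range. Rps29, a small zinc-binding protein of the small subunit, measured 160.0 and 281.0 CPM in wild-type and 201.1 and 185.8 CPM in knock-in cells (log2 fold change -0.19, SE 0.24). Here wild-type 2 was the highest library, and without it Rps29 had a log2 fold change of 0.26. Rpl23a, of the large subunit, had a log2 fold change of -0.16 (SE 0.23) in the unstranded counts. It was 0.22 in the sum of the strand columns, which can also hold reads of Tlcd1 from the shared stretch.

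Of the 77 core genes, 64 had a higher value in wild-type 2 than in wild-type 1 and 13 a lower one. The 13 were Rps27, Rps25, Rps7, Rps24, Rpl23, Rpl22, Rpl9, Rpl6, Rps27a, Rpl4, Rpl5, Rps13 and Rpl7, grouped after their values were seen. Their transcripts had a median GC content of 48.2%, against 52.8% for the other 64. Their median log2 fold change between the lines was 0.278, against 0.030 for the others, and without wild-type 2 the medians were 0.211 and 0.206. Choosing these genes by a wild-type 2 value below that of wild-type 1 builds in the fold-change difference of 0.278 against 0.030. The same choice bears on the medians without wild-type 2, so both comparisons are given only as a description.

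GC content went along with the difference between the wild-type libraries across the core genes. Over the third of the core genes with the lowest GC content (26 genes), wild-type 2 minus wild-type 1 had a median of 0.188 on the log2 CPM scale. Over the middle 25 genes the median was 0.288, and over the 26 genes with the highest GC content (53.8% to 60.8%) it was 0.516. The medians of knock-in 2 minus knock-in 1 were -0.135, -0.130 and -0.132 in the same order. Spearman's rho with GC content across the 77 core genes was 0.465 for the wild-type pair and -0.121 for the knock-in pair. For the wild-type pair it was 0.612 over the large subunit, 0.274 over the small subunit and 0.631 over all tested genes. For the knock-in pair it was -0.353 over the large and 0.206 over the small subunit. Genes of 1 library are not independent replicates, and no test was made. The median log2 fold change between the lines was 0.144, 0.060 and -0.057 from low to high GC content, and without wild-type 2 the values were 0.208, 0.213 and 0.194. After the GC trend of all genes was removed, wild-type 2 still exceeded wild-type 1 by a median of 0.338 over the core genes.

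**Figure D4:**
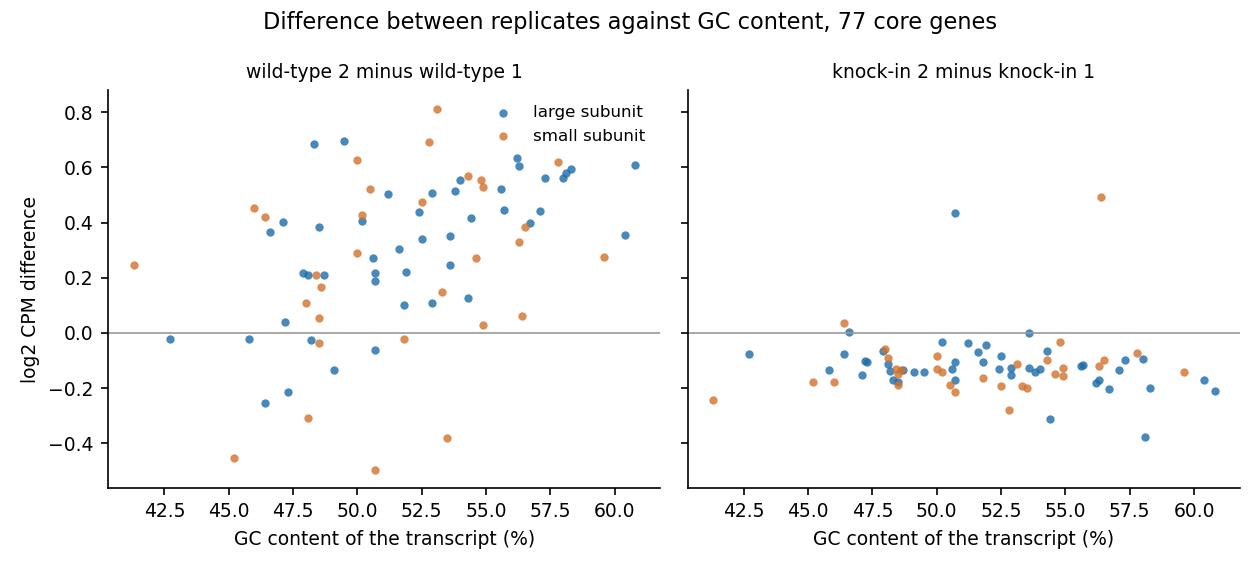
Log2 CPM difference between replicates against transcript GC content for the 77 core genes, wild-type 2 minus 1 on the left and knock-in 2 minus 1 on the right, blue for the large and orange for the small subunit. The wild-type differences run higher at high GC content (rho 0.465) and the knock-in differences lie mostly near -0.13 (rho -0.121).

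The 8 paralogs encode proteins related to core proteins, several of them known from testis or muscle. The level of each relative to its parent gene was compared within libraries. On the CPM per kb scale, Rps27l stood at 58.9% to 81.4% of the level of Rps27, Rpl39l at 40.8% to 47.4% of Rpl39, Rpl7l1 at 16% to 18.4% of Rpl7 and Rpl10l at 5.35% to 10.2% of Rpl10. Rpl22l1 stood at 4.73% to 6.54% of Rpl22. The parents Rps27 and Rpl10 share 98.6% and 92.1% of their 50-base stretches with other genes, so levels relative to them are uncertain. Rpl3l, a muscle form of Rpl3, Rpl36al and Rps27rt were at most 0.954% of their parents. For Rpl22l1, 30.3% of the transcript lies opposite an antisense gene and the strand columns held 2.8 times its count, and Rpl36al has 63.1% of its transcript on the exons of Gm49383 on the same strand. Rps27rt, a copy without introns, shares 91.1% of its 50-base stretches with Rps27 or other loci and had 39 and 8 counts in wild-type 1 and 2 against 36 and 28 in knock-in cells (log2 fold change 0.70, SE 0.55), so its values are uncertain.

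Rpl7l1 and Rpl22l1 had non-overlapping higher values in knock-in cells without passing the test. Rpl7l1 measured 277.9 and 237.7 CPM in wild-type and 338.7 and 298.6 CPM in knock-in cells (log2 fold change 0.31, SE 0.15, edgeR adjusted p = 0.479). Rpl22l1 measured 17.3 and 20.7 CPM in wild-type and 21.5 and 22.9 CPM in knock-in cells (log2 fold change 0.22, SE 0.18). Its log2 fold change was -0.20 with the GC offset, -0.14 with that offset and the replicate block, and 0.54 in the sum of the strand columns, so its direction depends on the setting. Rpl39l overlapped between the lines, with 65.8 and 76.9 CPM in wild-type and 83.4 and 65.4 CPM in knock-in cells. So did Rps19bp1, the gene that encodes no ribosomal protein, with 45.5 and 55.4 CPM against 50.6 and 45.2 CPM.

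Rpl10l, a copy of Rpl10 without introns that serves in male germ cells (ENSMUSG00000060499, GRCm38 chromosome 12, 66283379 to 66284401), was the lowest of the 86 genes by fold change. It measured 118.8 CPM in wild-type 1 and 168.8 in wild-type 2, against 99.4 CPM in knock-in 1 and 79.8 in knock-in 2, so that both knock-in values lay below both wild-type values. The means were 144 ± 35.4 and 89.6 ± 13.8 CPM (SD, n = 2 each). The log2 fold change was -0.68 (SE 0.20, 95% interval -1.13 to -0.23), and the edgeR adjusted p was 0.311. Only 7.6% of its 50-base stretches occur in another gene. Its parent Rpl10 measured 1073 and 1295 CPM in wild-type and 1274 and 1164 CPM in knock-in cells. The log2 ratio of Rpl10l to Rpl10 was -3.18 and -2.94 in wild-type and -3.68 and -3.87 in knock-in cells, a difference of -0.716 with no overlap. It was the 1 gene of the 86 called with no filter on low counts, beside 1.31% of all genes. The gene's adjusted p was 0.0132 in that setting, 0.00560 without wild-type 2 and 9.97e-16 without wild-type 1, and reached 0.722 without knock-in 1 and 1 without knock-in 2, all from edgeR with Benjamini-Hochberg adjustment. Its log2 fold change was -0.91 without wild-type 1 and -0.42 without wild-type 2, and -0.28 (edgeR adjusted p = 0.188) with the GC offset and without wild-type 2.

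The ratio to the parent also lay lower in both knock-in libraries for Rps27l and Rpl36al. Rps27l, a p53-responsive relative of Rps27, had log2 ratios of 0.103 and 0.235 in wild-type and -0.173 and -0.230 in knock-in cells, a difference of -0.371. Its own CPM values overlapped between the lines (147.1 and 114.3 against 168.1 and 139.2), while those of Rps27 did not. For Rpl36al the difference was -0.530, from 33 and 42 counts in wild-type and 28 and 20 in knock-in cells. The ratios of Rpl3l, Rpl7l1, Rpl22l1, Rpl39l and Rps27rt overlapped between the lines, with differences of 0.007, 0.061, -0.056, -0.082 and 0.443. The ratios were not tested and are given as a description, and those to Rps27 are also uncertain because of its shared sequence.

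**Figure D5:**
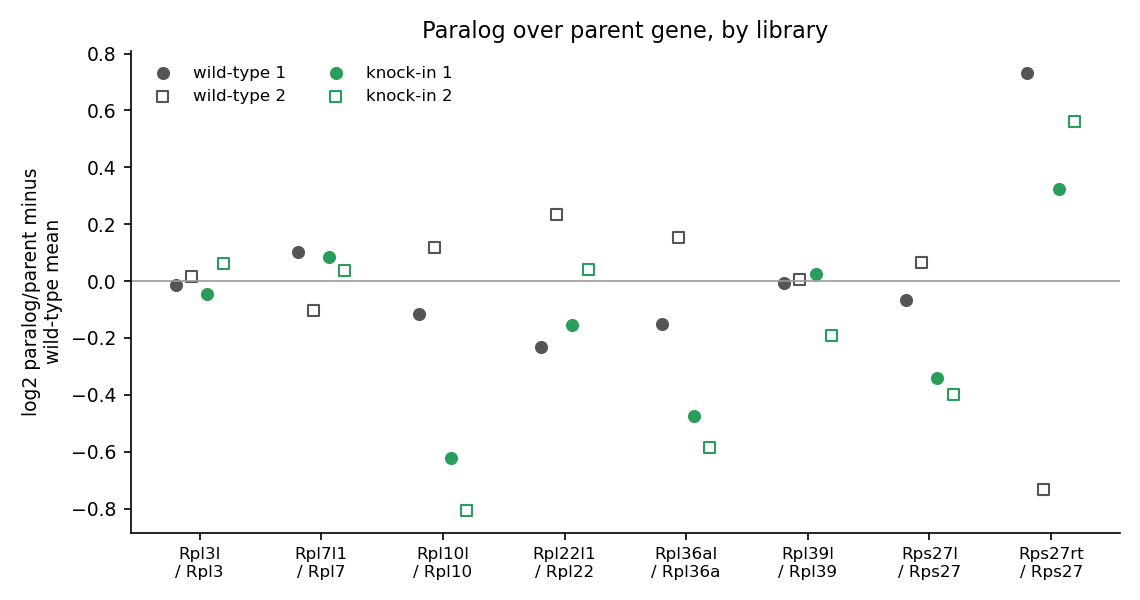
Log2 ratio of each paralog to its parent gene in each library, shown as the difference from the wild-type mean, with filled circles for replicate 1, open squares for replicate 2, grey for wild-type and green for knock-in. Both knock-in points lie below both wild-type points for Rpl10l, Rpl36al and Rps27l, and the points of the other 5 pairs overlap.

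Genes that make or use ribosomes were described from 6 further lists. Of 3 ribosomal proteins with other names, 0 were called. Rack1, a scaffold on the small subunit, had a log2 fold change of -0.10 and Fau, a fusion of a ubiquitin-like and a ribosomal protein, one of -0.07. Without wild-type 2 these values were 0.13 and 0.16. Of 42 factors that assemble ribosomes, 0 were called in either direction. Their median log2 fold change was 0.224, 36 of the 42 lay above 0, and 28 had non-overlapping higher and 0 non-overlapping lower values in knock-in cells (beside 23.4% and 23.9% of all tested genes). Npm1, a nucleolar chaperone, measured 2665 and 2202 CPM in wild-type and 3345 and 3112 CPM in knock-in cells. Ncl, which encodes nucleolin, measured 2245 and 1708 CPM in wild-type and 2906 and 2631 CPM in knock-in cells (edgeR adjusted p = 0.408). Both genes had their lowest value in wild-type 2, the library in which most core ribosomal protein genes were highest. With the GC offset their log2 fold changes were 0.19 and 0.28, against 0.41 and 0.49 without it, while the list's median was 0.243. The list's median was 0.282 without wild-type 1 and 0.213 without wild-type 2, so its sign turned with neither wild-type library. The medians of the 2 subunits turned without wild-type 1, and without wild-type 2 they were 0.208 and 0.206. The medians of the lists described next also kept their sign in both fits. List medians without a knock-in library are not given here.

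Of 15 tested genes of the RNA polymerase I machinery, which transcribes ribosomal RNA, 0 were called, 12 lay above 0 and the median log2 fold change was 0.161, which was 0.186 without wild-type 1 and 0.090 without wild-type 2. Of 8 tested transcripts that host small nucleolar RNAs, 0 were called, 7 had non-overlapping higher values (beside 23.4% of all tested genes) and the median was 0.334, or 0.200 with the GC offset. Gas5, a host transcript that itself has a TOP motif, measured 63.6 and 64.0 CPM in wild-type and 82.8 and 87.5 CPM in knock-in cells (log2 fold change 0.42, SE 0.15, edgeR adjusted p = 0.417). With the GC offset its log2 fold change was 0.16. Under that offset it was -0.093 without wild-type 1 and 0.465 without wild-type 2, so its direction depends on the setting. Of 19 translation factors and other transcripts with TOP motifs, 0 were called, 16 lay above 0 and the median was 0.111, which was 0.051 without wild-type 1 and 0.172 without wild-type 2. Eef1a1, the factor that carries aminoacyl-tRNA to the ribosome, measured 11770 and 14210 CPM in wild-type and 13750 and 13230 CPM in knock-in cells. As in many core ribosomal protein genes, wild-type 1 was the lowest and wild-type 2 the highest library. Of 18 regulators of these genes or their messenger RNAs, 0 were called, 9 had non-overlapping higher and 2 non-overlapping lower values (beside 23.4% and 23.9% of all tested genes), and the median was 0.089, or 0.153 with the GC offset. Larp1 measured 420 and 435 CPM in wild-type and 446 and 460 CPM in knock-in cells.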

How the data were processed

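Per the submitters' processing notes, reads were trimmed with Trim Galore and aligned with STAR 2.5.3a to mm10 (GRCm38). Which annotation release they used is not given in the sources used here. The deposited unit is raw counts of reads per gene from STAR, and the authors applied no normalization to them. The unstranded column was used, since the labels name no kit that marks the strand. Reads that fitted several places (3.80% to 4.46%) or several genes (5.96% to 6.38%) carry no gene in these counts. Of the gene identifiers, 54809 matched GENCODE M21 on GRCm38 and 29 did not, and the 4 summary rows were left out of library sizes.

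All genes were fitted together with edgeR 4.0.16 in R 4.3.3 (TMM scaling, filterByExpr with a minimum count of 10, quasi-likelihood F test on genotype, Benjamini-Hochberg adjustment over 15191 genes, threshold 0.05). The SE was obtained by dividing the size of the log2 fold change by the square root of its F value. CPM values are TMM-scaled, and levels per kb use the shortest transcript with a consensus coding sequence, or else the longest. For Rps20 that transcript is 3706 bases long, against a median of 681 over the core genes, so its level per kb may be understated. DESeq2 1.42.0 and limma-voom (limma 3.58.1) were alternatives. The procedure was also run on simulated counts with the same dispersion in every library and no GC trend. There it recovered 69% of planted 2-fold changes, and 11 of its 197 calls were false. The wild-type pair here stands further apart than the knock-in pair, so that run does not give error rates for these data. For the GC offset, each library's deviations from the mean were fitted against GC content with a natural spline of 5 degrees of freedom.

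The members and lists were chosen with earlier results of these data known. The text names the 5 highest and 5 lowest members by fold change, the 6 most abundant per subunit, the 3 least abundant core genes, every paralog pair, any member past the threshold, and from each list members past the threshold or among the 3 most abundant. Other genes are named where a count rests on them, after their values were seen. A few genes are not reported here by name, though they enter every count and median. With 2 libraries per group, p-values set the difference between the lines against the spread between libraries of the same line. They do not cover variation between separately derived lines. The libraries' total counts set the precision of low values.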

Additional observations from a re-analysis of the deposited data

How the results depend on the processing

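With 2 libraries a group and a wild-type pair that stands far apart, counts of calls moved with nearly every setting. Over all genes, the 10 calls became 354 with no low-count filter, 6 with a stricter one, 197 with the replicate number as a block, 212 with a GC offset, 461 with both, 123 with DESeq2, 4 with limma-voom, and 16 to 5015 when 1 library was left out. Added after the data were seen, a GC offset without wild-type 2 or 1 gave 632 and 1480. The replicate numbers did not pair the samples (correlation of the replicate differences -0.116), and a block on the crossed pairing gave 509.

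Of the 86 ribosomal protein genes, 0 were called in the reported fit, with DESeq2 size factors and with TMM without these genes. The same held with the replicate block, with DESeq2, with limma-voom and with the sum of the strand columns. The stricter filter kept 83 of them, and 0 of these were called. The count was 1 with no filter (Rpl10l) and 1 with the GC offset (Rps27), 3 with the GC offset and the block (Rpl10l, Rpl13a and Rps27, beside 3.03% of all genes), 2 with the crossed pairing (Rpl10l and Rps27, beside 3.35%), 5 and 9 with the GC offset without wild-type 2 and 1 (beside 3.91% and 9.47%), and 0 to 32 when 1 library was left out. Leaving out 1 library gave medians of -0.117 to 0.208 for the large and -0.062 to 0.206 for the small subunit. With the GC offset they were 0.147 and 0.148, and with it and without wild-type 2 they were 0.338 and 0.33. The difference in the large to small ratio was -0.0198 with values per kb and 0.0525 with medians of log2 CPM. Rpl22l1 went from 0.22 to -0.644 (edgeR adjusted p = 0.000826) with the GC offset without wild-type 1, and the cause was not tested. Over 592 values of named genes, 482 stayed within 1 SE with no call, 73 moved further with no call, 36 gained a call in the same direction and 1 gained a call in the opposite direction. The sign turned in 74 of the 592, among them 51 of the 73 and 22 of the 482.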
